A study of Mus musculus with 28 samples.

Results

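U3 is the most abundant box C/D small nucleolar RNA (snoRNA), and in the mouse it is made from a few gene copies named *Rnu3*. The genes described here are *Rnu3a*, *Rnu3b1*, *Rnu3b2* and *Rnu3b4*, 4 of the 15384 genes with an RNA-seq value. They were taken by symbol from the chromatin RNA count table of 27179 genes and joined by gene ID to the RNA-seq values, and they were chosen with their difference between *Ssrp1* KD and control known. Their KD and control values are therefore a description and carry no test. Another annotated copy, *Rnu3b3*, also has a value and is shown beside them, so that all 5 *Rnu3* genes of the RNA-seq table are covered.

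All samples used here were E14 mouse embryonic stem cells (mESCs) grown with LIF. For RNA-seq, cells received lentiviral vectors with a scramble control or with a combination of 2 shRNAs against *Ssrp1*, followed 48 h later by 24 h of puromycin at 2 μg/ml, and ERCC spike-in RNA was added to the extracted RNA (4 control and 4 KD libraries, described in the methods as biological replicates). Both groups thus carried a vector and the selection, and cells were collected as transfected populations. *Ssrp1* encodes a subunit of FACT, the histone chaperone that SSRP1 forms with SUPT16, and other mESCs without a vector gave chromatin-associated RNA (2 libraries, fractionated in the presence of α-amanitin) and ChIP-seq of each subunit (2 replicates called together as 1 peak list).

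U3 guides no methylation. It base-pairs with the pre-rRNA inside the SSU processome, the large particle that folds and cleaves the precursor of 18S rRNA, and it acts there together with the box C/D core proteins and proteins of its own. Unlike most vertebrate snoRNAs, which are cut out of introns of host genes, U3 is transcribed by Pol II from its own snRNA-type promoter, receives a trimethylguanosine cap and is trimmed at its 3′ end.

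The sequences are shown first because they decide which copies the reads can tell apart. They were read from the RefSeq genome GRCm38.p6, the assembly that mm10 names. *Rnu3a* lies between genes on chromosome 10, at chr10:40258468-40258679 on the plus strand (212 bases), and the capitals mark the 104 bases at chr10:40258576-40258679 that the chromatin RNA table gives as its counted interval. *Rnu3b1* lies at chr11:87443237-87443451 on the plus strand (215 bases), and its capitals mark bases that differ from *Rnu3a* in a global alignment.
Rnu3a: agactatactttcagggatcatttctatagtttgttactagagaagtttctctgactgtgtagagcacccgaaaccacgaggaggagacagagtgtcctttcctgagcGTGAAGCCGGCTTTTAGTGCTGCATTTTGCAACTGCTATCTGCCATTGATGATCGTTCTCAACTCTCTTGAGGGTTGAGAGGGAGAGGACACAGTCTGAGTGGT
Rnu3b: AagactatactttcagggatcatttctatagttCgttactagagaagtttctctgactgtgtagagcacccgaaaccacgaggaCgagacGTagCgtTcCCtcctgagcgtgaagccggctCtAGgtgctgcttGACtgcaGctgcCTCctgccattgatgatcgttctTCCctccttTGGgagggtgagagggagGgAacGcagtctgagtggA

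The 4 copies on chromosome 11 share the *Rnu3b* sequence base for base over 215 bases, and *Rnu3b4* is annotated with 3 bases more. A read inside them cannot be placed at a single copy by its sequence. *Rnu3a* and *Rnu3b1* were identical in 186 of 218 aligned columns (85.3%), with 23 substitutions and 9 gap columns. The differences were uneven along the gene: 91.7% of the columns before the counted interval of *Rnu3a* were identical against 78.9% of those inside it, and the longest identical run was 50 bases. Counted from 1 at the 5′ end of *Rnu3a*, the first substitution was T33C and the next G84C. Reads that fall inside an identical run cannot tell *Rnu3a* from *Rnu3b*.

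*Rnu3b1*, *Rnu3b3* (chr11:87448627-87448841), *Rnu3b4* (chr11:87462286-87462503) and *Rnu3b2* (chr11:87471368-87471582) stand in this order, all on the plus strand, within 28346 bp of 1 intron of *Tex14*, a gene with a role in the germline. The predicted non-coding RNA LOC115487798 ends across *Rnu3b1* on the same strand, so reads of the pair cannot be separated. The copies were also identical upstream of the gene. The identical run before the start spanned 266 to 308 bases over the 6 pairs of *Rnu3b* copies, while the 500 bases after the shared sequence were only 50.2 to 56.1% identical in global alignments. For comparison, the 250 bases before *Rnu3a* and before the *Rnu3b* copies were 47.2% identical. A copy can therefore be placed from its downstream flank, but neither from the RNA nor from the sequence just before it.

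*Ssrp1*, the targeted gene, was at 261, 230, 223 and 226 (library-size normalised value) in the control libraries (here and below in the order of replicates 1 to 4). In the KD libraries it was at 24.1, 26.4, 24.9 and 28.9. It fell by 3.15 on the log2 scale (SE 0.07, limma adjusted p = 1.18e-22), and the groups did not overlap. The library-size value is a number of reads divided by an effective library size. The recovered number of reads on all genes was 4602278 to 6680919 in control and 9433193 to 19856032 in KD. The effective size was 1.10 to 1.21 times that number in control and 0.85 to 0.88 times in KD. These values thus set KD higher against control than division by the library total alone would. All log2 fold changes are differences of mean log2(value + 0.5), KD minus control, which understates changes of low genes. A gene was called at an absolute log2 fold change above 1 with an adjusted p below 0.01. Of the mESC markers *Pou5f1*, *Nanog*, *Sox2*, *Zfp42* and *Esrrb*, all were present in every library, and 4 were called higher in KD (log2 fold changes of 1.05 to 1.28), with *Esrrb* at 0.83. The part of this shift in the U3 values was not tested.

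All U3 copies were higher in the KD libraries. The summed value of the 4 copies was 135, 78.8, 51.3 and 107 in the control libraries. It was 992, 1080, 1049 and 993 in the KD libraries. The lowest KD library stood 7.33-fold above the highest control library, so the groups did not overlap. On the log2 scale the sums differed by 3.55, or 11.7-fold, with an SD between replicates of 0.60 in control and 0.06 in KD (n = 4 each). Because reads of identical copies may have been counted at each of them, the sum can hold a read more than once. With *Rnu3a* and only the highest of its *Rnu3b* members added, the difference was 3.52, and with *Rnu3b3* added to the 4 it was 3.51. In bulk libraries, a change in the RNA per cell and a change in the share of cells that make it cannot be told apart.

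*Rnu3a*, the copy with a sequence of its own, was the lowest of the copies in this table. Its value was 12.4, 6.37, 1.97 and 8.62 in the control libraries. It was 77.9, 77.5, 77.6 and 69.2 in the KD libraries. The KD libraries lay close together and the control libraries far apart, and the lowest, control replicate 3, held 11 reads. The log2 fold change was 3.51.

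*Rnu3b1*, the first of the identical copies along the chromosome, had values of 39.9, 23.9, 16.3 and 32.6 in the control libraries. In KD replicates 1 to 4 they were 302, 330, 318 and 306, a log2 fold change of 3.53. The order of the control libraries was that of *Rnu3a*, with replicate 1 highest and replicate 3 lowest.

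*Rnu3b2* had values of 41.5, 23.8, 16.1 and 33.0 in the control libraries. They were 306, 336, 326 and 309 in the KD libraries, a log2 fold change of 3.54. *Rnu3b4* had values of 41.7, 24.8, 16.9 and 33.0 in control and 306, 337, 326 and 309 in KD, in the same order of replicates, with a log2 fold change of 3.51. These copies repeated *Rnu3b1* almost read for read. Within a library, *Rnu3b1*, *Rnu3b2* and *Rnu3b4* differed by only 1.22 to 4.36% of their mean number of reads, so that they stand for 1 measurement and not 3. *Rnu3b3*, with the same sequence, ranged from 20.1 to 41.1 in control and from 303 to 332 in KD, a log2 fold change of 3.37.

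**Figure D1:**
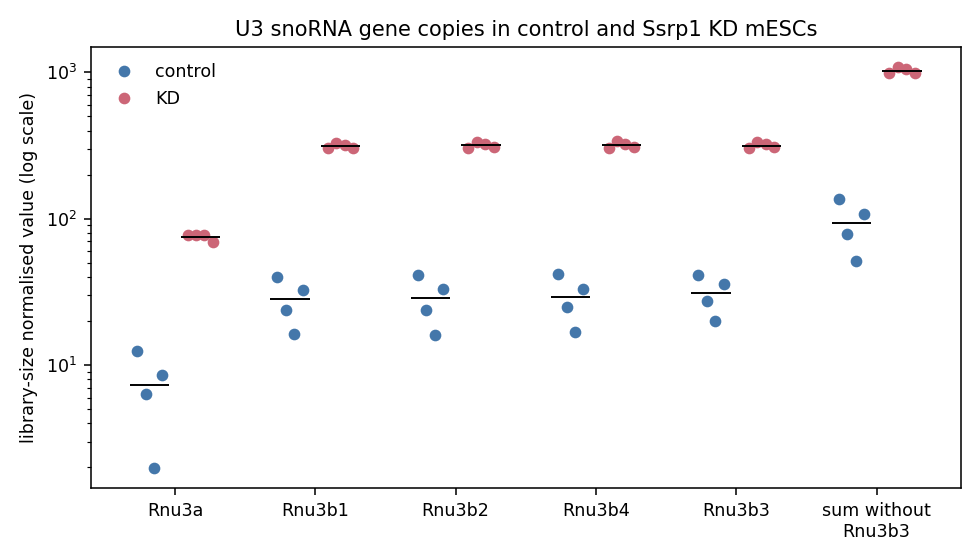
Library-size normalised value (log axis) of each annotated *Rnu3* copy and of the sum of the 4 members, by library; points are libraries, control in blue and KD in red, and bars are means of 4 libraries. For each copy and for the sum, every KD point lies above every control point, and the control points spread widely while the KD points lie close together.

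All 4 members had KD libraries above every control library. Among all 15384 genes, 8.07% were called higher, 20.6% were called lower, and in 35.8% every KD library lay above every control library. Since the members were chosen on this contrast, nothing is read from their count. By size of log2 fold change they held places 2 to 5 of all genes. By mean log2 value, *Rnu3b1*, *Rnu3b2* and *Rnu3b4* lay above 55.8 to 56.7% of genes in control and above 96.1 to 96.2% in KD, and *Rnu3a* moved from above 14.8% to above 78.3%.

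The size of the fold depended on the scaling and on the control libraries. Under the deposited spike-in scaling, the summed value was 91.0, 47.2, 34.4 and 95.8 in the control libraries. It was 914, 2001, 1694 and 1494 in the KD libraries, a log2 fold change of 4.57. That scaling also moved the median log2 fold change of all genes from -0.03 to 0.95. In plain CPM (reads scaled to the library total alone) the difference of the sums was 3.12 and the median of all genes -0.45. Relative to the median of all genes, the sums were higher in KD by 3.58, 3.61 and 3.57 in the library-size, spike-in and plain scalings. Each of these scalings multiplies all reads of a library by a common factor. Near-equal distances therefore follow from the measure, and nothing is read from them. After quantile normalisation, which uses no such factor, the distance was 3.27. In library-size values this distance was 3.33 without control replicate 3 and 3.79 without control replicate 1.

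The spread in control followed other values. The order of the control libraries in the summed value (replicates 1, 4, 2 and 3 from high to low) was also their order in depth, at 6680919, 6391046, 4888173 and 4602278 reads. Other small RNA genes were lowest in the same library. The 7 *Rnu* genes outside *Rnu3* summed to 56.8, 46.3, 33.4 and 45.1 in the control libraries, and the 21 *Snora* genes to 107, 92.9, 73.7 and 97.0. Without control replicate 3 the summed U3 difference was 3.29, and without control replicate 1 it was 3.75. The part of depth or of the recovery of small RNA in the U3 values was not tested. The interval counted for a gene, here taken from the chromatin RNA counts, is short for these RNAs. Leaving out the members but not *Rnu3b3*, genes of 151 to 300 bp, the class of the *Rnu3b* copies, were called higher in 47.1% of 51 cases (median log2 fold change 0.92). In the class of 1 to 150 bp, that of the counted interval of *Rnu3a*, it was 18.8% of 69 genes (median 0.42), in that of 301 to 1000 bp 26.4% of 1523 (0.52), and above 3000 bp 2.78% of 6646 (-0.26). The classes up to 300 bp hold small RNA genes that are counted again below, so length and kind of RNA are not separate observations. The part of length was likewise not tested.

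The profile of U3 over the 8 libraries was closest to that of a few other strongly changed genes. Likeness was measured as the root mean square difference of log2(value + 0.5) to the summed U3 profile after centring each gene, so a small number means a similar profile. The step between control and KD makes up most of this profile. The measure therefore favours genes with a similar log2 fold change, here 2.89 to 3.59, and that the nearest genes changed strongly follows from it. *Rnu3b3* came first at 0.13, a copy whose reads cannot be told from those of the members. It was followed by *Pdk1*, a kinase that holds back pyruvate dehydrogenase, at 0.35, and by *Rnu2-10*, a U2 spliceosomal RNA gene, at 0.37. *Lefty2* and *Lefty1*, extracellular antagonists of Nodal, came next at 0.45 and 0.46. *Pdk1* ranged from 26.9 to 37.8 in control and from 317 to 340 in KD, a narrower control range than that of the U3 sum.

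Other small non-coding RNA genes were examined next, since several kinds of small RNA share with U3 a promoter type or a place in ribosome assembly. Of 63 such genes with a value, *Rnu3b3* included, 24 were called higher (38.1%) and 0 were called lower in limma, beside 8.07% and 20.6% of all genes. Without *Rnu3b3*, whose reads are those of the members, it was 23 of 62 (37.1%). At an unadjusted p below 0.05, 36 of the 63 were higher and 4 lower, and edgeR and DESeq2 called 0 lower as well. By limma adjusted p below 0.01 alone, 30 were higher and 1 lower, beside 5447 higher and 5745 lower among all genes. The median log2 fold change was 0.70, against -0.03 for all genes. By name, 6 of 8 *Rnu* genes were called higher (median 1.94), 7 of 21 *Snora* genes (0.71), 5 of 25 *Snord* genes (0.42) and 3 of 5 *Scarna* genes (1.25). The called *Rnu* genes include *Rnu3b3*. They also include *Rnu1b1* and *Rnu1b2*, which had the same control mean of 4.69 and KD means of 12.4 and 12.5. The *Rnu* count may therefore hold the same reads more than once and is not one of separate measurements. Box C/D RNAs other than U3 are mostly named *Snord*. Quantile normalisation gave 47 calls and the spike-in scaling 53, all higher, whereas plain CPM gave 14 higher and 2 lower and a pseudocount of 2 gave 18, all higher.

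After *Rnu3b3*, the genes with the highest log2 fold changes were 3 spliceosomal RNA genes and 1 snoRNA gene. *Rnu2-10* (U2) ranged from 8.43 to 16.2 in control and from 92.4 to 107 in KD, a log2 fold change of 2.89 (SE 0.12, limma adjusted p = 1.64e-17). *Rnu1a1* (U1) rose from 7.91 ± 1.69 to 59.0 ± 7.98 (SD, n = 4 each), by 2.84 (SE 0.12, adjusted p = 3.35e-17), and *Rnu1b6* (U1) rose by 2.56 (SE 0.15, adjusted p = 1.14e-14). U1 and U2, like U3, are made by Pol II from snRNA-type promoters, and as their genes too come in similar copies, the place of their reads is uncertain. *Snora73a*, a box H/ACA RNA that also takes part in 18S rRNA processing, rose from 29.6 ± 5.78 to 170 ± 7.64, by 2.52 (SE 0.09, adjusted p = 1.41e-18).

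At the other end, none of the 5 lowest genes passed the call. *Snord14d*, a copy of the U14 box C/D RNA that, like U3, serves 18S rRNA processing, had a log2 fold change of -0.74 (SE 0.31, limma adjusted p = 0.031). *Scarna9*, a Cajal body RNA, was at -0.71 (SE 0.15), *Snora28* at -0.56 (SE 0.24), *Snord95* at -0.46 (SE 0.22) and *Snord72* at -0.21 (SE 0.27). Other than *Scarna9* these are low genes, with control means from 2.13 to 3.52. All 5 were above 0 under the spike-in scaling, whereas in plain CPM *Scarna9* (-1.12) and *Snord14d* (-1.06) passed the call as lower (limma adjusted p = 6.71e-07 and 0.00342). *Rmrp*, *Rpph1* and *Rn7sk*, which Pol III transcribes, were named after their values were seen, for the contrast with Pol II. *Rmrp* rose by 1.87 (SE 0.13, adjusted p = 2.11e-13) and *Rpph1* by 1.41 (SE 0.14, adjusted p = 4.78e-10), whereas *Rn7sk* was at 0.89 (SE 0.13) and was not called.

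**Figure D2:**
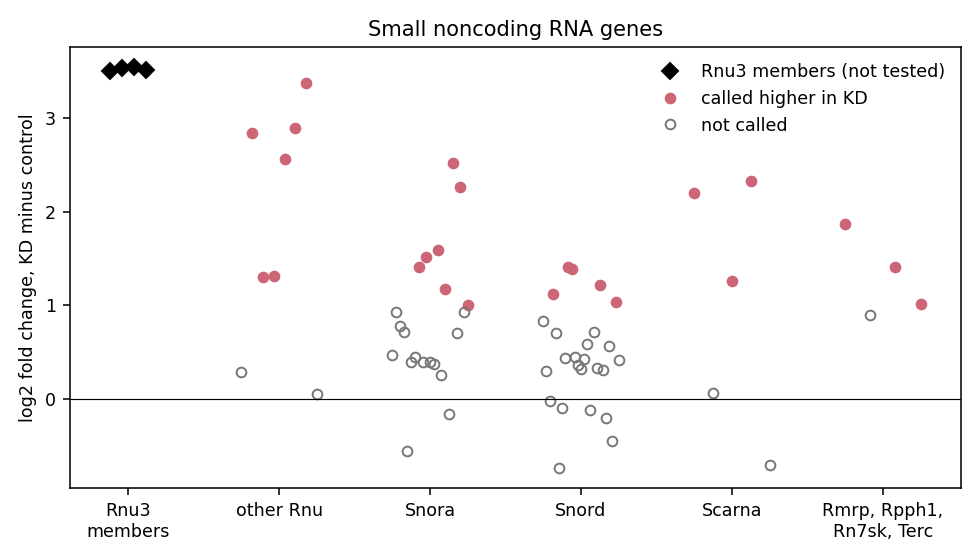
Log2 fold change (KD minus control, library-size values) of single small RNA genes, grouped by name; diamonds are the Rnu3 members, which were not tested, filled points are genes called higher and open points genes not called. The members lie at 3.51 to 3.54, above all 63 other genes shown, which reach from -0.74 to 3.37.

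Few genes for the proteins that act with U3 were called. Over 6 lists with 78 genes, 5 genes were called higher (6.41%) and 0 lower in limma, a share near the 8.07% of all genes. At an unadjusted p below 0.05, 62 were higher and 6 lower, edgeR called 5 higher and 0 lower, and DESeq2 called 7 higher and 0 lower. The share of all genes at the unadjusted cut is not given here, so nothing is read from such counts alone. By limma adjusted p below 0.01 alone, 58 list genes were higher and 5 lower. Among all 15384 genes, 5447 were higher and 5745 lower by that cut. The median log2 fold change of the 78 genes was 0.45, against -0.03 for all genes, and 66 of them were above 0. In plain CPM, limma called 0 of the 78, with 27 higher and 26 lower at an unadjusted p below 0.05. That scaling also moved the median log2 fold change of all genes from -0.03 to -0.45. The sign of part of the list changes thus rests on the scaling. The 4 genes for proteins particular to U3 and the Mpp10 complex were all still higher at this cut in plain CPM. The place of the lists relative to all genes was not tested.

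The box C/D core proteins are shared by U3 with all other box C/D RNAs. Of the 4 genes, 0 were called in limma, edgeR or DESeq2, though all 4 were higher at an unadjusted p below 0.05, and their median was 0.47. *Nop56*, *Nop58* and *Snu13*, the scaffold proteins and the kink-turn binder, were at 0.58 (SE 0.05), 0.48 (SE 0.05) and 0.47 (SE 0.06), and all 3 were slightly below 0 under quantile normalisation. Of the 4 genes for proteins particular to U3 and the Mpp10 complex, 2 were called higher. *Rrp9*, which binds the U3 box B/C motif, rose from 96.6 ± 3.60 to 201 ± 6.08 (SD, n = 4), by 1.05 (SE 0.06, limma adjusted p = 1.39e-15). *Imp3*, which helps U3 pair with the pre-rRNA, rose by 1.02 (SE 0.08, adjusted p = 1.01e-11), and its partner *Imp4* was at 0.83 (SE 0.06) and was not called.

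Of the 12 genes of the UTP-A and UTP-B subcomplexes, which open the SSU processome, 1 was called higher (median 0.47). This was *Tbl3*, which rose from 105 ± 5.19 to 221 ± 7.90, by 1.07 (SE 0.06, limma adjusted p = 1.47e-15), and *Utp18* and *Utp6* were at 0.92 and 0.74. Of 22 other processome factors 0 were called in limma (median 0.40, 17 higher and 1 lower at an unadjusted p below 0.05), edgeR called 0 and DESeq2 called 1. The highest were *Emg1*, a methyltransferase for 18S rRNA, at 0.99 (SE 0.06), *Utp14a* at 0.93 (SE 0.08) and *Utp3* at 0.77 (SE 0.07).

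Of the 13 genes for U3 assembly, capping and transport, 1 was called higher (median 0.50). It was *Ruvbl1*, an ATPase of the R2TP chaperone that builds box C/D particles, which rose from 74.3 ± 0.51 to 166 ± 3.79, by 1.15 (SE 0.06, limma adjusted p = 1.88e-16). *Ncbp2*, the small subunit of the nuclear cap-binding complex, was at 0.97 (SE 0.07) and *Pih1d1*, of R2TP, at 0.85 (SE 0.08). Of 23 genes for snRNA-type promoter factors and Integrator, the complex that cleaves the 3′ ends of these transcripts, 1 was called higher (median 0.27). *Zfp143*, an activator of snRNA-type promoters, rose from 31.2 ± 0.91 to 79.2 ± 3.22, by 1.33 (SE 0.07, adjusted p = 7.05e-16). *Snapc5*, of the SNAPc complex that binds their proximal sequence element, was at 0.91 (SE 0.13), and *Ints11*, the endonuclease of Integrator, at 0.73 (SE 0.06). This list was the most divided, reaching down to -0.57.

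**Figure D3:**
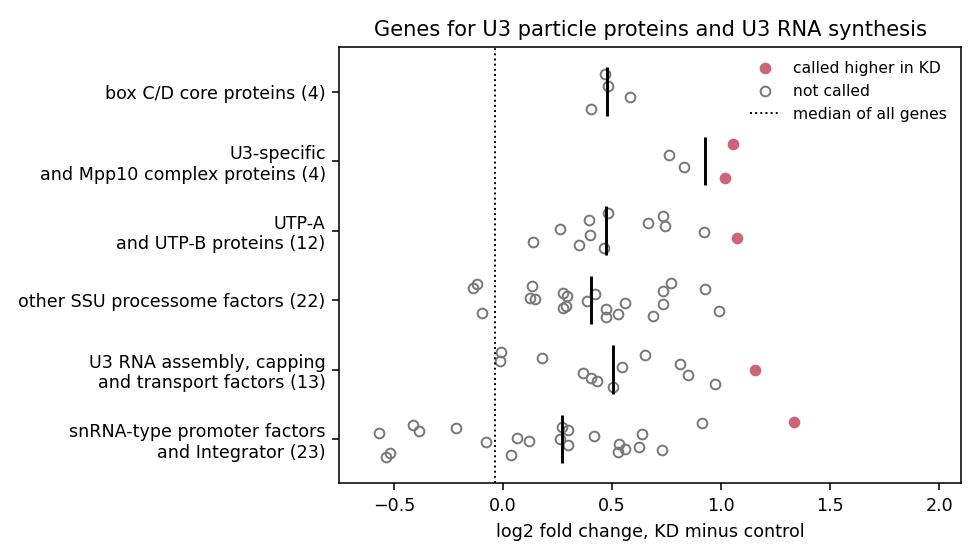
Log2 fold change (KD minus control, library-size values) of the 78 genes for U3 particle proteins and U3 synthesis; points are genes, filled where called higher, solid bars are list medians, and the dotted line is the median of all genes, -0.03. The 5 called genes lie between 1.02 and 1.33, and the other 73 genes did not pass the call.

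In the counts of chromatin-associated RNA, *Rnu3a* stood above the *Rnu3b* copies. *Rnu3a* had 23893 of 3441643 counts in library 1 (0.694%, 95% Wilson interval 0.686 to 0.703%) and 20957 of 3393923 in library 2 (0.617%, 0.609 to 0.626%), places 20 and 19 among 27179 genes. *Rnu3b1* had 314 and 198 counts, and *Rnu3b3* had 744 and 457. *Rnu3b2* had 2 and 0 counts and *Rnu3b4* 1 and 0, where a count of 0 in library 2 allows up to 8.84e-05% of the counts (taken as 3 counts of the total, the Wilson upper limit being 0.000113%). The members together held 0.703% (0.695 to 0.712%) and 0.623% (0.615 to 0.632%), and *Rnu3a* made up 98.7 and 99.1% of that. A read inside the identical *Rnu3b* copies cannot be placed by its sequence, so their counts depend on how such reads were placed or dropped. They are therefore not levels of single copies. The limit at 0 counts and the share of *Rnu3a* depend on the same step. The intervals cover counting error only, and with 2 libraries of 1 group there was no comparison to test.

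The division of U3 reads among the copies thus differed between the tables. In the RNA-seq libraries *Rnu3a* took 2.76 to 7.02% of the reads of all 5 copies in control and 5.32 to 6.01% in KD, while each *Rnu3b* copy took 22.4 to 28.1% in control and 23.2 to 23.8% in KD. Reads of identical copies may have been counted at each of them, which would lower this share of *Rnu3a*. The mean reads of *Rnu3b1*, *Rnu3b2* and *Rnu3b4* were 3.31 to 8.33 times those of *Rnu3a* in control and 3.92 to 4.45 times in KD. In chromatin RNA, *Rnu3a* took 95.7 and 97.0%. The intervals counted for RNA-seq are not given, so the lengths of the chromatin RNA intervals were used for both assays. Scaled to them, the mean value per kb in control was 70.5 ± 41.9 for *Rnu3a* and 131 ± 47.6 for *Rnu3b1* (SD, n = 4), and in KD 726 ± 40.5 and 1461 ± 58.7. Chromatin counts per kb were 229740 and 201510 for *Rnu3a* against 1460 and 921 for *Rnu3b1*. Another deposited table, that of the authors' own comparison, gives for *Rnu3a* an authors' mean of 8.24 on the log2 scale, place 435 of 14340 genes. The libraries behind that mean are not clear from the labels and may be others than those above. For the *Rnu3b* copies its mean lies between 0.82 and 2.26, below the median gene at 4.62, so that it lists *Rnu3a* above *Rnu3b*. The sources used here do not give how reads with several equal positions were counted. They name STAR for both assays, in version 2.5.1b for these RNA-seq libraries and 2.4.1b for chromatin RNA. Cell fraction, library preparation and counting differ together between the tables and cannot be told apart.

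**Figure D4:**
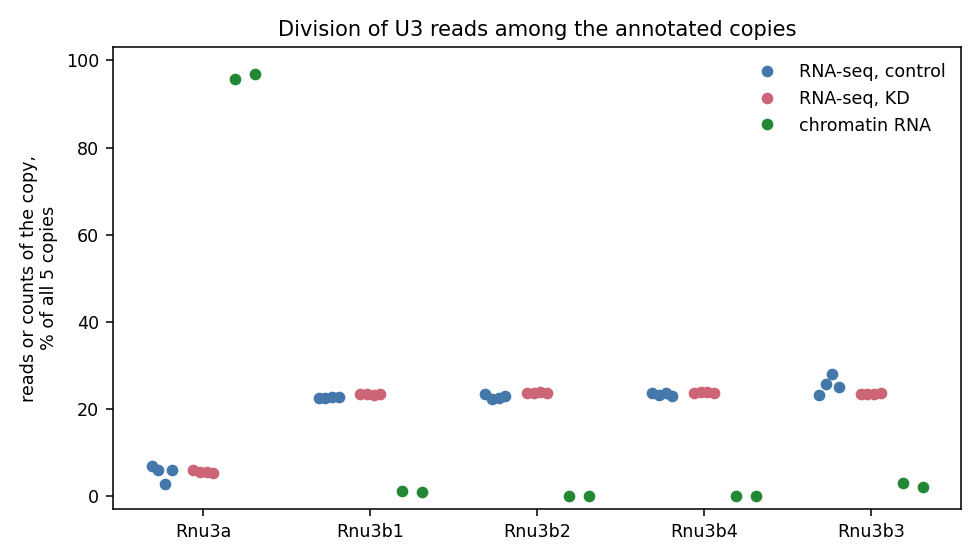
Reads (RNA-seq) or counts (chromatin RNA) of each annotated *Rnu3* copy as a percent of all 5 copies, each point a library. In RNA-seq the 4 identical copies take nearly equal shares and *Rnu3a* at most 7.02%, whereas in chromatin RNA *Rnu3a* takes at least 95.7%. Reads of identical copies may have been counted at each of them, which would lower the RNA-seq share of *Rnu3a*.

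The study's protocol for nascent RNA treats *Rnu3a* as an abundant 3′ end. Its set of 19 DNA oligos for the depletion of mature small RNA cDNA holds 1 against *Rnu3a*, and by summed chromatin RNA counts *Rnu3a* was the 15th of the 19 targets, which all lay among the 28 highest genes. The oligo (lower case throughout) and the matching stretches of the genes are shown, in which capitals mark bases that the oligo does not pair with.
depletion oligo: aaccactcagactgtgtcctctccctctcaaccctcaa
Rnu3a site: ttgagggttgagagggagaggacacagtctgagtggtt
Rnu3b site: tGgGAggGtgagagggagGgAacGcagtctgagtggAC
The oligo of 38 bases paired without a mismatch with bases 176 to 213 of *Rnu3a*, 1 base past its annotated end, and with 9 mismatches with the best ungapped place in *Rnu3b1*. The sources used here do not say whether it was used for the chromatin RNA libraries.

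SSRP1 peaks covered the chromosome 11 copies, and no peak of either subunit lay near *Rnu3a*. In the SSRP1 list of 10114 peaks, 1 peak covered each of *Rnu3b1* (chr11:87442657-87443930), *Rnu3b3* (chr11:87448341-87449516), *Rnu3b4* (chr11:87462061-87463138) and *Rnu3b2* (chr11:87471175-87472252). They began 193 to 580 bp before the start and ended 693 to 889 bp after it, so that each reached into the downstream flank in which the copies differ. ChIP reads inside the copies or the identical run before them cannot be placed at a single copy. The sources used here do not give how such reads were treated before peak calling. Peaks at these copies may therefore hold the same reads and are not counted as separate measurements. Within the intron of 40458 bp, 4 of 5 SSRP1 peaks lay on *Rnu3b* copies. For *Rnu3a* the nearest SSRP1 peak was 42254 bp away, at *Amd1*. With a window of 1000 bp around the start, 3 of 4 members had a SSRP1 peak, beside 15.2% of the 27179 genes of the count table and 67 of its 141 other small RNA genes (47.5%). The peak lists name *Tex14*, the nearest gene in their annotation, for all of these peaks.

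The SUPT16 list of 3855 peaks was sparser at the same places. A peak at chr11:87443301-87443930 covered most of *Rnu3b1*. The peaks nearest to *Rnu3b4* (chr11:87462621-87462970) and *Rnu3b3* (chr11:87449111-87449320) began 118 and 270 bp after the gene end, each inside the SSRP1 peak of its copy. At *Rnu3b2* there was none, the nearest being 8398 bp away, and for *Rnu3a* the distance was 627968 bp. Within 1000 bp of the start, 2 of 4 members had a SUPT16 peak, beside 8.87% of all genes and 54 of the 141 other small RNA genes (38.3%). With 1 list per subunit and no values per replicate, the presence of a peak has no error, and peak heights were not given. The limit on placing reads at a single *Rnu3b* copy holds for these peaks too.

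**Figure D5:**
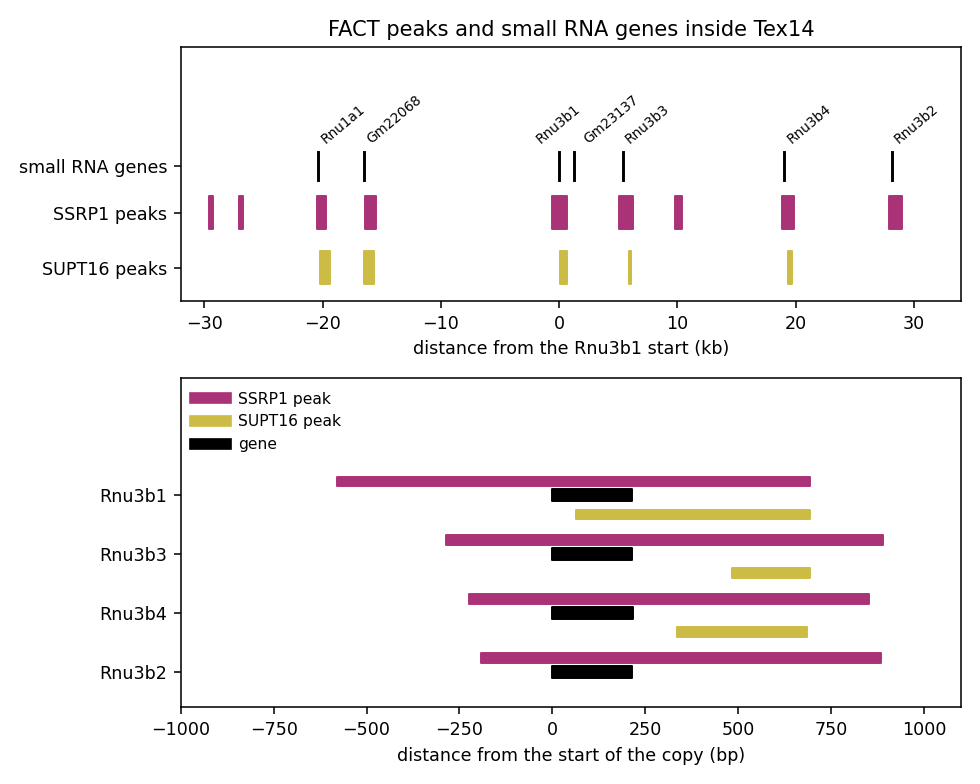
Top, SSRP1 and SUPT16 peaks inside *Tex14* and the small RNA genes there, by distance from the *Rnu3b1* start in kb. Bottom, the same peaks at each *Rnu3b* copy by distance from its own start in bp. An SSRP1 peak spans each of the 4 copies, and there is no SUPT16 peak at *Rnu3b2*.

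*Tex14*, the host of the chromosome 11 copies, was not called. Its RNA-seq value was 47.8, 41.1, 53.1 and 49.9 in control and 54.7, 51.9, 57.2 and 53.6 in KD, with overlapping groups. The log2 fold change was 0.18 (SE 0.08, limma adjusted p = 0.029). Of the other small RNA genes inside *Tex14*, *Rnu1a1* at chr11:87422867-87423030 and the U1-like *Gm22068* at chr11:87426716-87426879 each overlapped a peak of both subunits, and *Gm23137* at chr11:87444474-87444580 overlapped none.

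The other full-length loci with a U3-like sequence had no SSRP1 peak nearby. A search of the genome with *Rnu3a* and *Rnu3b* found 55 U3-like loci, 11 of them aligned over at least 200 bases. Leaving out the 5 annotated copies, the 6 other full-length loci were 85.1 to 96.3% identical to *Rnu3b*, *Rnu3b-ps1* on chromosome 19 being closest, and 0 of the 6 had an SSRP1 peak within 1000 bp. None of the 44 shorter loci overlapped one, though 1, at *Gm51950* on chromosome 11, had a peak 808 bp away. Among 12 other *Rnu* genes of the count table, 4 had a peak of each subunit within 1000 bp of the start (*Rnu3b3*, *Rnu1a1*, *Rnu2-10* and *Rnu5g*, named after their values were seen). Of these 4, *Rnu2-10* and *Rnu1a1* had log2 fold changes of 2.89 and 2.84. Of those without a peak in the window, *Rnu1b6* was at 2.56, *Rnu1b2* at 1.31 with *Rnu1b1* just under it, and *Rnu12* and *Rnu73b*, not called, at 0.28 and 0.05.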

How the data were processed

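The authors aligned RNA-seq reads to mm10 with STAR (2.5.1b for the spike-in set) and deposited, after a filter on low genes, a signal per gene and library that is scaled either by library size or by the spike-ins. Library-size values, as in the study's methods, were the main values. Each count of chromatin RNA is raw as deposited by the authors (STAR 2.4.1b, featureCounts). A log2 mean from the authors' table of KD against control is printed as theirs, and its fold changes and p-values, like those for progenitor cells, were not used. Peak positions were deposited by the authors after Bowtie2 2.2.6 and PePr 1.1 on both replicates together, and their starts were taken to count from 0.

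Whole reads were recovered from the steps between values (100% whole within 0.1 read). On log2(value + 0.5) of 15384 genes, limma (3.58.1, with trend) was run with Benjamini-Hochberg adjustment. Recovered reads served for alternatives by edgeR (4.0.16) and DESeq2 (1.42.0), besides other scalings, pseudocounts (0.1 and 2), filters and left-out libraries. On simulated data of this comparison with 200 changed genes among 15384, limma recovered 98.5%. The simulated log2 changes were at least 2 in either direction, so the recovery of changes near the cut of 1 was not measured. Same-numbered libraries did not deviate together (r from -0.06 to 0.02), so that replicate numbers were not taken as pairs. BLAST+ 2.17.0, Biopython 1.88, samtools 1.23.1, Python 3.11.15 and R 4.3.3 were used.

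The members and gene lists were chosen with earlier results of these data known. Named were the members, the 3 called genes of largest log2 fold change of each pathway list (or the 3 largest where fewer were called), the 5 highest and 5 lowest other small RNA genes, the 5 genes of most similar profile, and *Ssrp1*. RefSeq's promoter table was not used for these genes. MNase-seq, ATAC-seq, NET-seq and the RNA-seq set without spike-ins were not analysed here.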

Additional observations from a re-analysis of the deposited data

Results flagged for a closer look

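Of 76 groups of 4 libraries examined, 3 held a library whose gap to the others took most of the range of the group, and chance gives such a gap in about 5% of groups. In KD, *Rnu3a* was 69.2 in replicate 4 and 77.5 to 77.9 in the other libraries. For *Utp6*, KD replicate 1 was at 221 and the other KD libraries at 200 to 203. For *Snord95*, control replicate 3 was at 4.13 and the other control libraries at 3.27 to 3.40.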

How the results depend on the processing

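Control libraries held 11 to 91 reads of *Rnu3a*, which limits the precision of its fold. The summed U3 value was higher in KD under every scaling, pseudocount and left-out library tried. The summed difference was 4.57 under spike-in scaling and 3.12 in plain CPM (a scaling, like the added sums, chosen after seeing the data), and 3.29 to 3.75 with each library left out. Called list genes were 5, but 68 under spike-in scaling, 2 after quantile normalisation, 0 in plain CPM, 63 by adjusted p alone and 4 to 8 with a library left out (8 without control replicate 1). Of all genes, 4405 were called (1242 higher, 3163 lower), 8476 under spike-in scaling (7394 higher, 1082 lower) and 11192 by adjusted p alone (5447 higher, 5745 lower). Quantile normalisation gave 1518 higher and 1656 lower, plain CPM 343 and 4696, and left-out libraries 4254 to 4635 calls. Other small RNA calls were 24, but 53 under spike-in scaling, 47 after quantile normalisation, 16 in plain CPM (14 higher, 2 lower) and 18 with pseudocount 2 (22 to 26 with a library left out). The members' chromatin share was 0.663% on average and 0.858% of the counts of genes with an RNA-seq value. With peaks of at least 500 bp, 1 member had a SUPT16 peak. The replicate block gave a summed difference of 3.55, 5 list calls and 4405 calls in all, and changed no call of a named gene. Reversed were, under quantile normalisation, *Nop56* (-0.030), *Nop58* (-0.11), *Snu13* (-0.046), *Snord72* (0.82), *Snord95* (0.69), *Snora28* (0.56) and *Snord14d* (0.22), and under spike-in scaling *Snord72* (0.60), *Snord95* (0.43), *Snora28* (0.28), *Scarna9* (0.27) and *Snord14d* (0.057). The cause was not tested.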
